A study of Rattus norvegicus with 12 samples.

Results

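Neurons depleted of Staufen2 were compared here with neurons depleted of Pumilio 2, across all miRNA names in the deposited tables. The comparison was between 8 of the 12 libraries of the series. They were 4 from rat cortical neurons with a short hairpin RNA (shRNA) against Stau2 (shStau2) and 4 with an shRNA against Pum2 (shPum2). These libraries were chosen by their titles and paired by replicate number. The cells were primary cultures from Sprague Dawley rat cortex at embryonic day 17, plated at 100000 cells per square centimetre, given lentivirus with the shRNA at 10 days in vitro and lysed at 14 days in vitro. The other 4 libraries, which were also part of the fit, came from cultures with a non-targeting shRNA (shNTC). Every group therefore carried a lentivirus and a hairpin, and no group was left without virus. Per the series' design text, shPum2 was there to account for effects that any shRNA brings, so shStau2 against shPum2 sets 2 active hairpins beside each other. Stau2 and Pum2 mRNA levels cannot be read from small RNA tables, so the depletion was not analysed here. Of 805 small RNA names, 685 were miRNAs, and 628 of these passed the filter on low counts and were tested.

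MiRNAs are short RNAs cut from hairpin precursors by Drosha and Dicer. Argonaute proteins load a strand of the hairpin, and bases 2 to 8 of the loaded strand, the seed, pair with target mRNAs and lower their translation and stability. Staufen2 is a double-stranded RNA-binding protein that carries mRNAs into dendrites, and Pumilio 2 is a repressor that binds short motifs in the 3′ ends of mRNAs, often near miRNA sites. Neither is a core enzyme of miRNA production.

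The mature sequences of the miRNAs on which the results turn are shown here from 5′ to 3′, taken from RefSeq (GRCr8), with the seed in capitals. The lower group in shStau2 held miR-495 and its neighbour miR-543-3p from the Dlk1-Dio3 cluster, with miR-380-3p of the same cluster.
miR-495: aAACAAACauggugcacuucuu
miR-543-3p: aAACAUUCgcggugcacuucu
miR-380-3p: uAUGUAGUaugguccacaucu
From the miR-29 family the lower group held the guide strand miR-29b-3p and the passenger strand miR-29a-5p. The guide shares its seed with miR-29a-3p and miR-29c-3p, whereas the passenger has another seed.
miR-29b-3p: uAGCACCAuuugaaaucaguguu
miR-29a-3p: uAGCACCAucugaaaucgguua
miR-29c-3p: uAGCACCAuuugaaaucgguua
miR-29a-5p: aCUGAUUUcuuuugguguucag
Further miRNAs of the lower group were the proliferation-linked miR-17-5p, the immune-cell miR-155-5p and the muscle miR-206-3p.
miR-17-5p: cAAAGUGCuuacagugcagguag
miR-155-5p: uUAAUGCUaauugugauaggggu
miR-206-3p: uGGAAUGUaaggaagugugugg
The higher group held a pair of miR-125 relatives with the same seed, and miR-7a-5p.
miR-125a-5p: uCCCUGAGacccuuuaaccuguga
miR-125b-5p: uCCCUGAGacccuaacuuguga
miR-7a-5p: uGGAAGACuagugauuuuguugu

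Totals of the 8 libraries lay between 3997748 and 5134027 counts and overlapped between the groups. A floor of 3 counts was worth 0.623 to 0.743 CPM, the unit in which counts are scaled to a common library size, and 653 to 662 miRNA names had a count in each library. Neuron-enriched miRNAs, led by miR-9a-5p, summed to 359108 to 408636 CPM in shStau2 and 350203 to 413864 CPM in shPum2, so the labelled cell type had its markers in both groups. Levels below are CPM scaled by trimmed mean of M-values (TMM) factors, and changes are log2 fold changes, shStau2 minus shPum2, with their standard errors (SE). These are shares of a library. Fewer cells of a type and less RNA per cell therefore cannot be told apart. For miR-29b-3p and miR-455-3p the library shPum2 replicate 2 was the lowest of its group and near the shStau2 level, and both are also given without it. It was singled out for these values, so leaving it out had to enlarge both differences. The labels call the 4 libraries of a group biological replicates without saying what was separate, so p-values measure the spread between these samples only. In the main fit that is the spread left after the effects of the replicate number are taken out.

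Levels were tested with edgeR's quasi-likelihood test, with the replicate number as a block and Benjamini-Hochberg adjustment. All 12 libraries were fitted together, so shNTC also entered the estimates of spread and replicate effects. Between the knockdowns 25 of 628 miRNAs differed at an adjusted p of 0.05, which is 3.98% of those tested. In shStau2, 15 were lower (2.39%) and 10 were higher (1.59%). The differences were small, between 0.22 and 1.02 on the log2 scale in size, and only miR-29a-5p exceeded a 2-fold difference. The median over all tested miRNAs was 0.01, and 124 had an unadjusted p under 0.05 where 31.4 would be expected by chance. Of the 25, 23 moved in the same direction in all 4 pairs of libraries, where 83 of all tested were lower (13.2%) and 88 higher (14.0%) in all 4. For 13 of the 25 the highest library of the lower group lay below the lowest of the other (31 of 628 tested, 4.94%). Both counts come from names picked by a test that favours such agreement and are no further support. The exceptions in direction were miR-455-3p, lower in 3 of 4 pairs, and miR-3542, higher in 3 of 4.

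**Figure D1:**
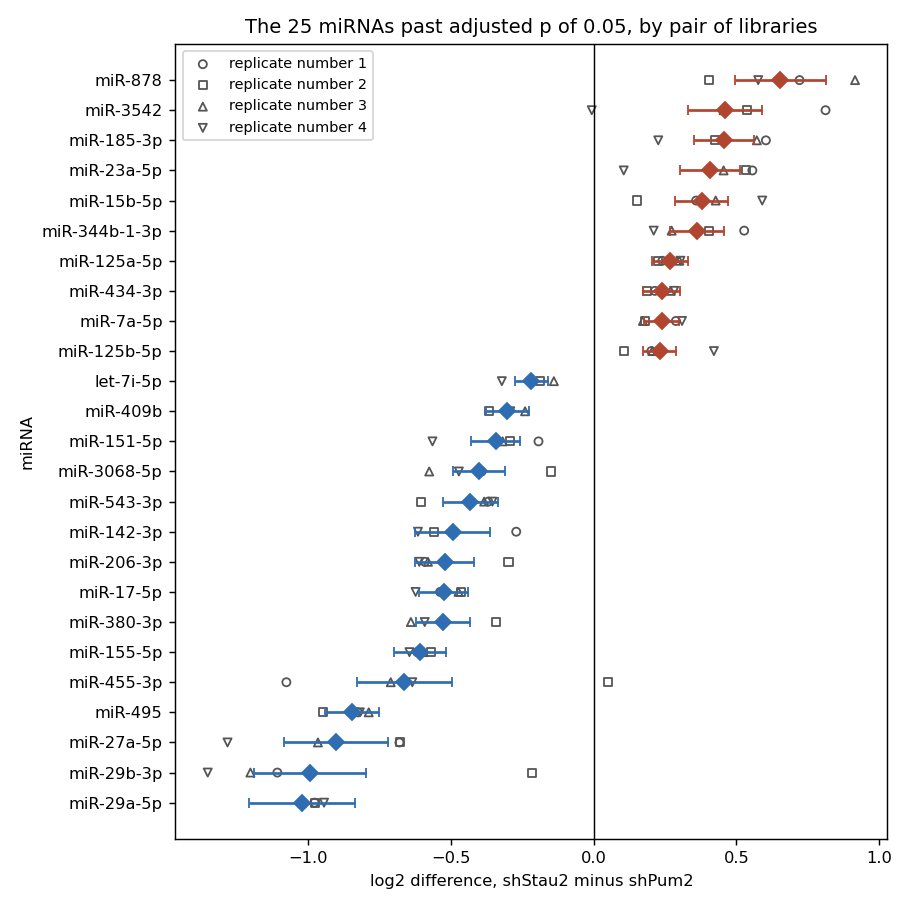
Log2 difference in level, shStau2 minus shPum2, for the 25 miRNAs past an adjusted p of 0.05, with 1 row per miRNA. Open symbols are the differences within the 4 pairs of equally numbered libraries, and diamonds with bars are the fitted log2 fold changes ± SE; in the lower group only the replicate number 2 symbol of miR-455-3p lies right of 0.

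The number of calls rested on the pairing and on a few libraries. Without the replicate block 3 miRNAs passed (miR-495, miR-29a-5p and miR-29b-3p, each at an adjusted p of 0.0349), with 59 at an unadjusted p under 0.05. With the block and only the 8 shStau2 and shPum2 libraries, 80 passed. The split of calls also moved with the scaling: 26 higher and 14 lower with upper-quartile factors, and 5 higher and 21 lower with library totals. Calls fell to 6 without shStau2 replicate 1, 3 or 4, to 10 without shStau2 replicate 2, and to 12 or 8 without shPum2 replicate 1 or 3. They rose to 68 without shPum2 replicate 2 and to 39 without shNTC replicate 2. No miRNA was called higher without the block, without shStau2 replicate 1, 3 or 4, or without shPum2 replicate 1. With shStau2 replicate 2 or shPum2 replicate 3 left out, 1 was called higher. Among the higher calls, miR-125a-5p passed in 15 of the 27 alternatives, miR-125b-5p and miR-15b-5p in 14 and miR-7a-5p in 13. Of the 25 miRNAs, miR-495, miR-29a-5p, miR-155-5p, miR-17-5p and miR-380-3p passed without any 1 of the 12 libraries, and no call changed direction under any of the 27 alternatives run.

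The Dlk1-Dio3 cluster, an imprinted locus whose many miRNAs are made from the maternal chromosome in neurons, held 5 of the 25. That is 5.75% of its 87 tested members, beside 3.98% of all tested miRNAs. Its miR-495 had the smallest p of all tested. In the shStau2 libraries 1 to 4 it stood at 42.9, 35.03, 52.4 and 56.6 CPM, and in the shPum2 libraries at 76.3, 67.9, 90.8 and 100.1 CPM. All shStau2 libraries were below all shPum2 libraries, and the log2 fold change was -0.85 (SE 0.10, adjusted p = 2.25e-05, lower in 4 of 4 pairs). The adjacent hairpin yields miR-543-3p, at 106, 98.6, 106 and 109 CPM in shStau2 and 137, 150.1, 138 and 139.9 CPM in shPum2. Again the groups did not overlap (log2 fold change -0.43, SE 0.10, adjusted p = 0.0197). From its other arm, miR-543-5p differed by -0.03 (adjusted p = 0.929).

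A further pair from the same cluster was lower. The level of miR-380-3p was 76.5, 83.3, 74.7 and 80.1 CPM in shStau2 and 110.0, 106, 117 and 121 CPM in shPum2 (log2 fold change -0.53, SE 0.10, adjusted p = 0.00334). The level of miR-409b was 728, 729, 785 and 741 CPM against 900.1, 939, 927 and 907 CPM (log2 fold change -0.30, SE 0.07, adjusted p = 0.0292). Neither overlapped between groups, and their replicates lay close together. In the opposite direction, miR-434-3p, whose hairpin lies opposite the retrotransposon-derived gene Rtl1, was at 4832, 4825, 4518 and 4437 CPM in shStau2 and 4164, 4241, 3746 and 3649 CPM in shPum2. Its log2 fold change was 0.24 (SE 0.07, adjusted p = 0.0439), with no overlap.

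More members of the cluster lay below 0 than above it, most of them without passing the test. Of 89 names, 87 were tested: 4 were called lower and 1 higher, and the median was -0.08 beside 0.01 over all miRNAs. With library totals 7 were called lower and none higher, so that miR-434-3p lost its call, and with upper-quartile factors 4 were lower and 2 higher. Below 0 lay 59 of the 87 (67.8%), beside 48.7% of all miRNAs, and 26 members were lower in all 4 pairs where 8 were higher. Over all tested miRNAs 83 were lower (13.2%) and 88 higher (14.0%) in all 4 pairs. The count below 0 was 54 with upper-quartile factors and 68 with library totals. The cluster's most abundant miRNA, miR-127-3p, differed by 0.07. Members linked to dendrites were among those not called, such as miR-134-5p, which limits dendritic spine growth, at -0.22 (adjusted p = 0.0719). Along the gene order the hairpins of miR-495 and miR-543-3p stood side by side. On the far side of miR-495, miR-667-5p and miR-667-3p differed by -0.41 and -0.17, and on the far side of miR-543, miR-666-5p and miR-666-3p by 0.21 and -0.14, none of them called.

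**Figure D2:**
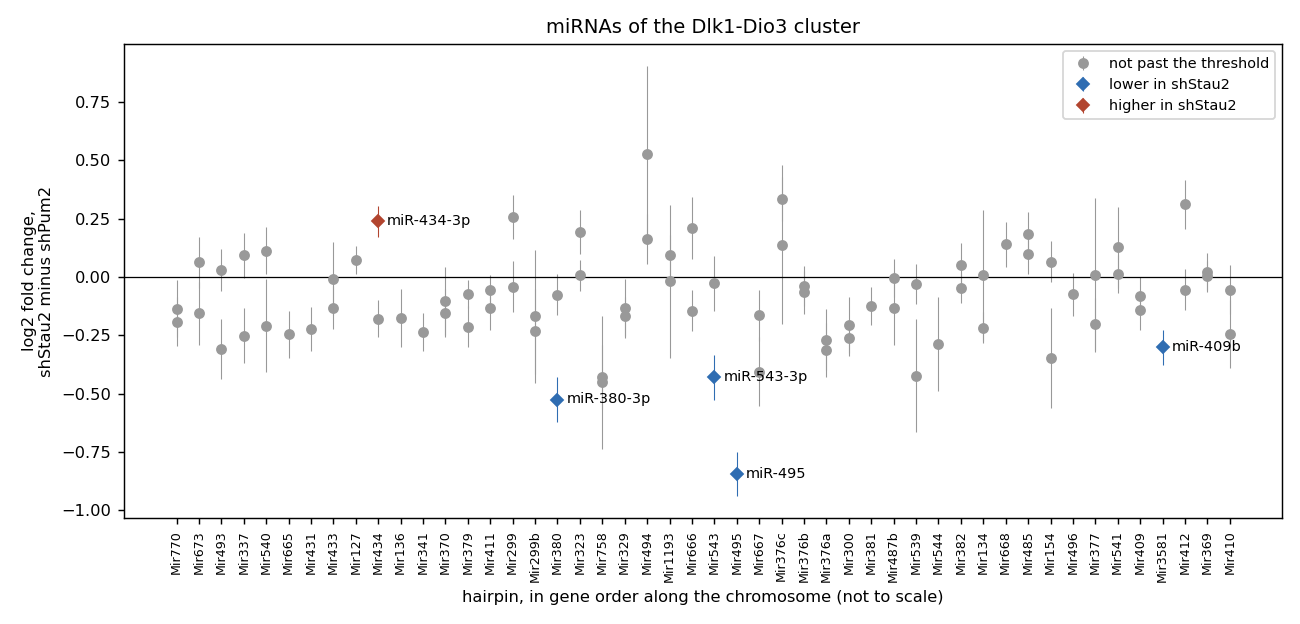
Log2 fold change ± SE, shStau2 minus shPum2, of 85 mature miRNAs of the Dlk1-Dio3 cluster at their 48 hairpins, in gene order along the chromosome. Coloured diamonds mark the 5 miRNAs past the threshold; miR-495 at -0.85 is the lowest point and lies next to miR-543-3p at -0.43.

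The 2 neighbouring miRNAs also share sequence outside their seeds. A run of 11 bases, GGUGCACUUCU, stands at the 3′ end of both and in no other of the 563 tested miRNAs with a sequence (0.355% hold it), on the strand as sequenced; it is in capitals here.
miR-495: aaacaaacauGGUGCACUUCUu
miR-543-3p: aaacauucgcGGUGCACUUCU
Their seeds AACAAAC and AACAUUC differ, so they belong to different seed families.

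The miR-29 family, which rises as neurons mature, held the 2 called miRNAs with the largest differences, miR-29a-5p and miR-29b-3p. All of its 6 tested members were below 0 (median -0.31), also under every other scaling run, and 2 passed the test. The guide miR-29b-3p was at 789, 708, 648 and 503 CPM in shStau2, and at 1699, 822, 1490.5 and 1282 CPM in shPum2. Every shStau2 library was lower than every shPum2 library, but shPum2 replicate 2, at 822 CPM, lay below the other shPum2 libraries and close to shStau2. The log2 fold change was -0.99 (SE 0.20, adjusted p = 0.0292), a change of -49.7%. Without shPum2 replicate 2, singled out for its value, it was -1.25 (adjusted p = 1.02e-08), and this gain is no further support. Without 9 of the other libraries the call was lost, at adjusted p up to 0.132. Those were replicates 1, 3 and 4 of all 3 groups. Fitted on the 8 shStau2 and shPum2 libraries alone, with the block, it did not pass either (log2 fold change -0.99, adjusted p = 0.125).

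The passenger strand miR-29a-5p was rare, at 9.30, 5.34, 7.77 and 7.44 CPM in shStau2 and 18.7, 10.9, 16.2 and 14.7 CPM in shPum2. Its groups did not overlap, and the log2 fold change was -1.02 (SE 0.19, adjusted p = 0.00334), the largest in size of the 25. The guide of that hairpin, miR-29a-3p, was the family's most abundant member. It stood at 5131, 5136, 4857 and 3388 CPM in shStau2 and at 8326, 5164, 6332 and 4045 CPM in shPum2, which overlap (log2 fold change -0.35, SE 0.11, adjusted p = 0.108). The remaining members did not pass either: miR-29c-3p differed by -0.20, miR-29b-5p by -0.27 and miR-29c-5p by -0.13. In RefSeq's table miR-29a and miR-29b1 are neighbouring hairpins, and miR-29b-3p comes from the Mir29b1 and Mir29b2 hairpins, which its counts do not separate. The sequences of miR-29b-3p and miR-29c-3p share a run of 17 bases, so reads may have been split between them by the counting.

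**Figure D3:**
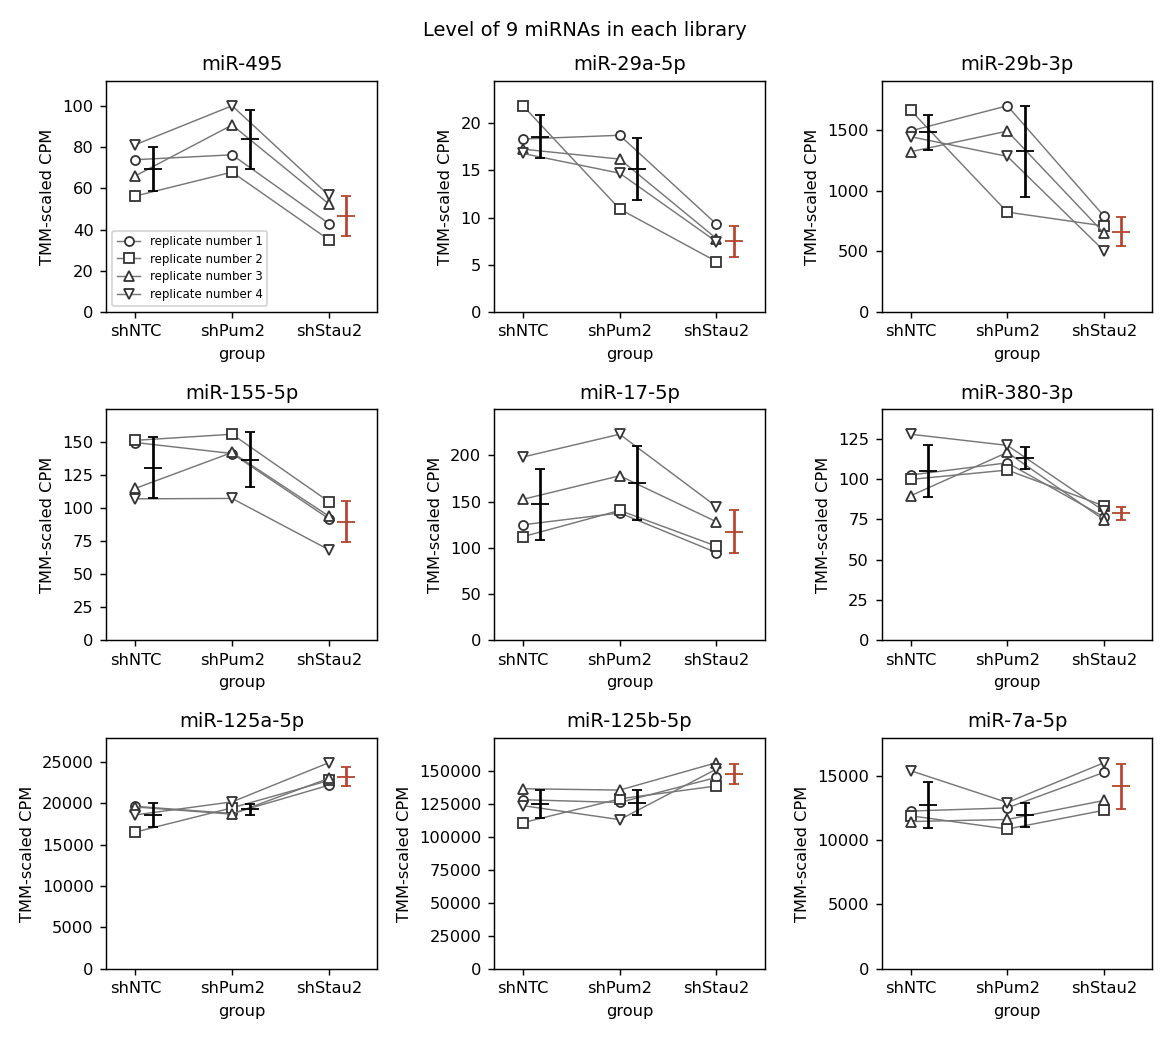
Level in TMM-scaled CPM (linear axes from 0) of 9 miRNAs in each of the 12 libraries, with lines joining libraries of the same replicate number and bars giving the mean ± SD (n = 4). In shPum2 the replicate number 2 library, at 822 CPM for miR-29b-3p, lies near the shStau2 libraries, while for miR-495 and miR-380-3p all 4 shStau2 libraries lie below all shPum2 libraries.

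Large growth-linked families each held a lone called member. From the miR-17 cluster, linked to cell proliferation, miR-17-5p was at 94.8, 102, 128 and 145 CPM in shStau2 and 138, 140.5, 178 and 223 CPM in shPum2. The ranges overlap, but every shStau2 library was below the shPum2 library of its number, with log2 differences from -0.62 to -0.46 (fitted log2 fold change -0.52, SE 0.09, adjusted p = 0.00151). It was the only 1 of 24 tested members of the cluster and its paralogs that passed; miR-20a-5p differed by -0.14, miR-18a-5p by -0.30, miR-92a-3p by 0.21 and the most abundant member, miR-93-5p, by -0.07. RefSeq places miR-17-5p at the Mir17 and Mir106a hairpins, and the counts do not separate them.

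In the miR-15 family, which slows the cell cycle, miR-15b-5p was higher. It was at 298, 277, 336 and 273 CPM in shStau2 and 233, 249, 250.0 and 181 CPM in shPum2, without overlap (log2 fold change 0.38, SE 0.09, adjusted p = 0.0292). None of the other 12 tested members passed, although 1 was called lower with RLE factors or library totals: the abundant miR-16-5p differed by -0.02 and miR-497-5p by -0.34 (adjusted p = 0.0510). Among 20 tested members of the let-7 family, which marks differentiated cells, let-7i-5p alone passed, at 17242, 17120, 20182 and 17323 CPM in shStau2 and 20056, 19490, 22218 and 21635 CPM in shPum2. Its difference was the smallest of the 25 (log2 fold change -0.22, SE 0.06, adjusted p = 0.0407), and shStau2 replicate 3 overlapped with shPum2. With upper-quartile factors it did not pass, and 1 other member was called higher. The most abundant member, let-7c-5p, differed by 0.04. The sequence of let-7i-5p shares a run of 16 bases with let-7g-5p, which differed by -0.00 (adjusted p = 0.978).

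Several miRNAs known from cells other than neurons were lower in shStau2. The clearest was miR-155-5p, known from activated immune cells and microglia, at 92.1, 105, 94.1 and 68.6 CPM in shStau2 and 141, 156, 142 and 107 CPM in shPum2. All shStau2 libraries lay below all shPum2 libraries, and the log2 fold change was -0.61 (SE 0.09, adjusted p = 0.000697). A marker of blood-derived cells, miR-142-3p, was at 16.8, 14.8, 10.4 and 12.0 CPM in shStau2 and 20.3, 22.0, 14.7 and 18.6 CPM in shPum2. These overlap, and each pair was lower (log2 fold change -0.49, SE 0.13, adjusted p = 0.0388). Of the 10 tested blood or microglia markers these 2 were lower and none was higher, with a list median of -0.27. Below 0 lay 6 of the 10. Above it were miR-486 and, at 0.19, 0.59 and 0.31, miR-150-5p, miR-451-3p and miR-144-5p. The most abundant, miR-486, differed by 0.25, miR-146a-5p by -0.51 (adjusted p = 0.183) and the neutrophil marker miR-223-3p, at 6.57 CPM, by -0.30. The list summed to 514 to 603 CPM in shStau2 and 491 to 645 CPM in shPum2, and its part in the results was not tested.

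The muscle miRNA miR-206-3p was at 155, 161, 200.03 and 138 CPM in shStau2 and 233, 198, 299 and 211 CPM in shPum2. The groups overlapped by shStau2 replicate 3, and the log2 fold change was -0.52 (SE 0.10, adjusted p = 0.00704). Its call was lost without shStau2 replicate 1 (adjusted p = 0.0825) or 3 (adjusted p = 0.1002). It was the only called one of 6 tested muscle markers; miR-1-3p, which defines muscle, was at 7.36 CPM and differed by -0.04. The combined name for miR-133a-3p and miR-133b-3p differed by -0.02.

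Of 9 tested names on the list of astrocyte markers, miR-27a-5p passed as lower and miR-23a-5p as higher, and the other 7 did not pass. Among these 9, miR-449a-5p and miR-449a-3p also stand on the choroid or ciliated list, and miR-143-3p on the vessel or mesenchyme list. Below 0 lay 7 of the 9 (median -0.39), the same number under every scaling run, while the call of miR-23a-5p was lost with library totals. Their summed level was 3314 to 5453 CPM in shStau2 and 4104 to 6634 CPM in shPum2. The most abundant, miR-21-5p, was at 1904, 1840, 1620.5 and 1228 CPM in shStau2 and 2957, 2125, 2058 and 1543 CPM in shPum2, and did not pass (log2 fold change -0.39, adjusted p = 0.176). In cortex miR-29 is made by astrocytes as well as neurons, and the part of cell composition in the miR-29, miR-155-5p and miR-27a results was not tested. All 8 tested vessel or mesenchyme markers, among them the shared miR-143-3p, were also below 0, with none past the threshold (median -0.22).

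The rare miR-27a-5p was at 15.4, 10.2, 7.77 and 6.24 CPM in shStau2 and 25.0, 16.6, 15.6 and 15.8 CPM in shPum2. Its groups did not overlap (log2 fold change -0.90, SE 0.18, adjusted p = 0.00775), and the call was lost without shStau2 replicate 2 (adjusted p = 0.0523) or 4 (adjusted p = 0.0542). From the neighbouring hairpin miR-23a-5p was higher, at 125, 178, 76.2 and 109 CPM against 85.1, 123, 55.4 and 101 CPM. These ranges overlap widely (log2 fold change 0.41, SE 0.11, adjusted p = 0.0321), and without the replicate block the adjusted p was 0.659. The main products of the cluster did not pass: miR-27a-3p differed by -0.37, miR-23a-3p by -0.12 and miR-24-3p by -0.09.

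Among the higher miRNAs, the miR-125 family, relatives of worm lin-4 that act in neuronal differentiation and at synapses, held the most abundant. The second most abundant miRNA of the libraries, miR-125b-5p, was at 145042, 138580, 156222 and 151377 CPM in shStau2 and 126084, 128813, 135459 and 113056 CPM in shPum2. All 4 shStau2 libraries were above all shPum2 libraries (log2 fold change 0.23, SE 0.06, adjusted p = 0.0292). Its relative miR-125a-5p was at 22204, 22776, 23037 and 24928 CPM in shStau2 and 18789, 19468, 18706 and 20189 CPM in shPum2, also without overlap (log2 fold change 0.27, SE 0.06, adjusted p = 0.0197). The 2 share their first 13 bases. The 3p strands of these hairpins did not pass and differed by 0.03, 0.16 and 0.16, of which the first was below 0 with library totals. With miR-125b-5p among them, the 10 higher miRNAs together made up 18.5% ± 0.566 (SD, n = 4) of a library's counts of tested miRNAs in shStau2 and 16.3% ± 0.503 (SD, n = 4) in shPum2. The 15 lower ones made up 1.98% ± 0.0649 and 2.48% ± 0.149 (SD, n = 4 each). Both sets were picked by their direction in these libraries, so the direction of these differences was fixed by the choice.

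Another abundant neuronal miRNA, miR-7a-5p, which restrains alpha-synuclein and is bound by the circular RNA Cdr1as, was higher in each pair. It was at 15274, 12326, 13088 and 16025 CPM in shStau2 and 12510, 10868, 11611 and 12929 CPM in shPum2, which overlap (log2 fold change 0.24, SE 0.06, adjusted p = 0.0348). It was the only called one of 34 tested neuron-enriched miRNAs, where upper-quartile factors called 4 and library totals 0. Among them miR-9a-5p, the most abundant of all, differed by -0.00. Its relative miR-7b differed by -0.07 (adjusted p = 0.637), and the passenger strands miR-7a-1-3p and miR-7a-2-3p by 0.31 (adjusted p = 0.0682) and 0.20.

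The remaining higher miRNAs were less abundant and overlapped between groups. The level of miR-185-3p was 44.5, 58.7, 31.1 and 35.7 CPM against 29.1, 43.6, 20.8 and 30.5 CPM (log2 fold change 0.46, adjusted p = 0.0197). For miR-878, from an X-linked cluster known from testis, the values were 12.5, 17.9, 10.6 and 13.4 CPM against 7.40, 13.4, 5.40 and 8.86 CPM (log2 fold change 0.65, adjusted p = 0.0292). Its neighbours miR-880-3p and miR-881-3p differed by 0.63 and 0.53 without passing. The brain miRNA miR-344b-1-3p stood at 77.1, 73.3, 56.3 and 50.9 CPM against 53.4, 55.2, 46.5 and 43.9 CPM (log2 fold change 0.36, adjusted p = 0.0361). The level of miR-3542 was 37.7, 40.1, 28.9 and 25.2 CPM against 21.3, 27.5, 21.0 and 25.3 CPM (log2 fold change 0.46, adjusted p = 0.0490), and it held its call in the fewest alternatives, 10 of 27.

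Outside these groups, 3 more miRNAs were lower. The level of miR-3068-5p was 104, 112, 115 and 116 CPM in shStau2 and 136, 124, 172 and 160.4 CPM in shPum2, without overlap (log2 fold change -0.40, adjusted p = 0.0197). For miR-151-5p, made from an intron of the focal adhesion kinase gene Ptk2, the values were 227, 212, 259 and 263 CPM against 259.6, 259.6, 323 and 389 CPM (log2 fold change -0.34, adjusted p = 0.0292). The cartilage-linked miR-455-3p was at 9.76, 9.51, 11.005 and 9.59 CPM against 21.0, 9.17, 18.3 and 15.1 CPM. Here shPum2 replicate 2 was again at the shStau2 level and the others above it (log2 fold change -0.66, adjusted p = 0.0299). Without that library, singled out for its value, the log2 fold change was -0.85 (adjusted p = 0.00109), which is no further support. The call of miR-455-3p was lost without shStau2 replicate 1, 3 or 4 or shPum2 replicate 1, 3 or 4 (edgeR, adjusted p up to 0.150). It was also lost in DESeq2 with the block.

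A target sees all miRNAs of a seed together, so counts were also summed by seed. RefSeq gave a mature sequence for 612 of the 685 names. Of 480 families tested, 21 were called (4.38%), 8 higher and 13 lower, and 3 of them had more than 1 tested name. The miR-125 seed CCCUGAG, with miR-125b-5p, miR-125a-5p and miR-351-5p, was higher by 0.24 (SE 0.06, adjusted p = 0.0141). The miR-7 seed GGAAGAC was higher by 0.21 (SE 0.06, adjusted p = 0.0437), and the seed GGAAUGU of miR-206-3p, miR-1b and miR-1-3p differed by -0.43 (SE 0.09, adjusted p = 0.00575), of which miR-206-3p held 85.8% in shPum2. The miR-7 seed kept its call in 8 of the 24 alternatives run for it.

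For other called miRNAs the seed family as a whole did not pass. The guide miR-29b-3p was 15.6% of its family in shPum2, and the family AGCACCA differed by -0.41 (SE 0.12, adjusted p = 0.104). Summed, it stood at 6966, 6854, 6673 and 4751 CPM in shStau2 and 11412, 6961, 9340 and 6207 CPM in shPum2, which overlap. The share of miR-17-5p in its family was 3.82%, and the family AAAGUGC differed by -0.10 (adjusted p = 0.401). The share of let-7i-5p was 9.84%, and the let-7 seed GAGGUAG differed by 0.03 (adjusted p = 0.749). The share of miR-15b-5p was 0.642%, and its family AGCAGCA differed by -0.02 (adjusted p = 0.882). The difference between a miRNA and its family was not tested. Among families of a lone name, miR-300-3p, miR-376c-3p, miR-187-5p and miR-3587 passed when adjusted over families and not over miRNA names.

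**Figure D4:**
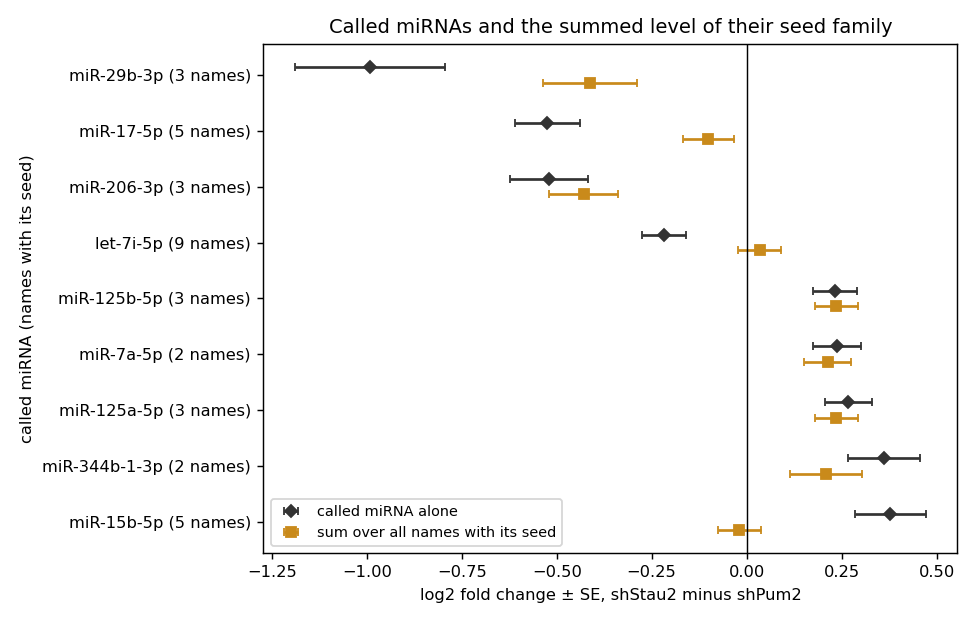
Log2 fold change ± SE, shStau2 minus shPum2, of 9 called miRNAs whose seed is shared by more than 1 tested name (diamonds), and of the counts summed over all names with that seed (squares). For miR-125a-5p, miR-125b-5p and miR-7a-5p both lie between 0.21 and 0.27, while for miR-17-5p, let-7i-5p and miR-15b-5p the sum lies near 0.

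The strands of a hairpin are cut from the same precursor, so their ratio does not depend on scaling between libraries. Of 124 hairpins with enough counts of both arms, the 5p to 3p ratio differed for 12 (9.68%; limma on log2 ratios, Benjamini-Hochberg adjustment), 4 toward 5p and 8 toward 3p, at adjusted p between 0.0398 and 0.0457. For miR-380 the ratio was 0.908, 0.789, 0.879 and 0.713 in shStau2 and 0.654, 0.644, 0.622 and 0.494 in shPum2, a change of 0.45 on the log2 scale (SE 0.10, adjusted p = 0.0398). All shStau2 ratios were above all shPum2 ratios, and the 5p arm itself differed by -0.08. The miR-543 ratio was 0.286, 0.333, 0.260 and 0.275 against 0.197, 0.218, 0.219 and 0.237 (change 0.40, adjusted p = 0.0457), also without overlap. In these Dlk1-Dio3 hairpins the 3p arm was lower and the 5p arm stayed within its error of 0.

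Hairpins with a shift toward 3p included the miR-29a and miR-27a hairpins, whose rare 5p strands were 0.161% and 2.59% of both arms in shStau2 and 0.255% and 3.56% in shPum2. Their ratios changed by -0.67 (adjusted p = 0.0398) and -0.56 (adjusted p = 0.0398). For miR-434 the ratio was 0.137, 0.135, 0.159 and 0.163 in shStau2 and 0.183, 0.161, 0.220 and 0.234 in shPum2 (change -0.42, adjusted p = 0.0444), with the arms at -0.18 and 0.24. The others toward 3p were miR-185, miR-3068, miR-342, miR-412 and miR-672, and those toward 5p also held miR-23a and miR-666. In 4 of the 12, miR-342, miR-412, miR-672 and miR-666, neither arm was called alone. The rarer arm had the larger change in 9 of the 12, beside 58.1% of the 124. These calls lay near the threshold: none passed without the block (16 at an unadjusted p under 0.05), and none without shStau2 replicate 2, 3 or 4, shPum2 replicate 1 or 3, or shNTC replicate 1 or 3, while 1 passed without shStau2 replicate 1.

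**Figure D5:**
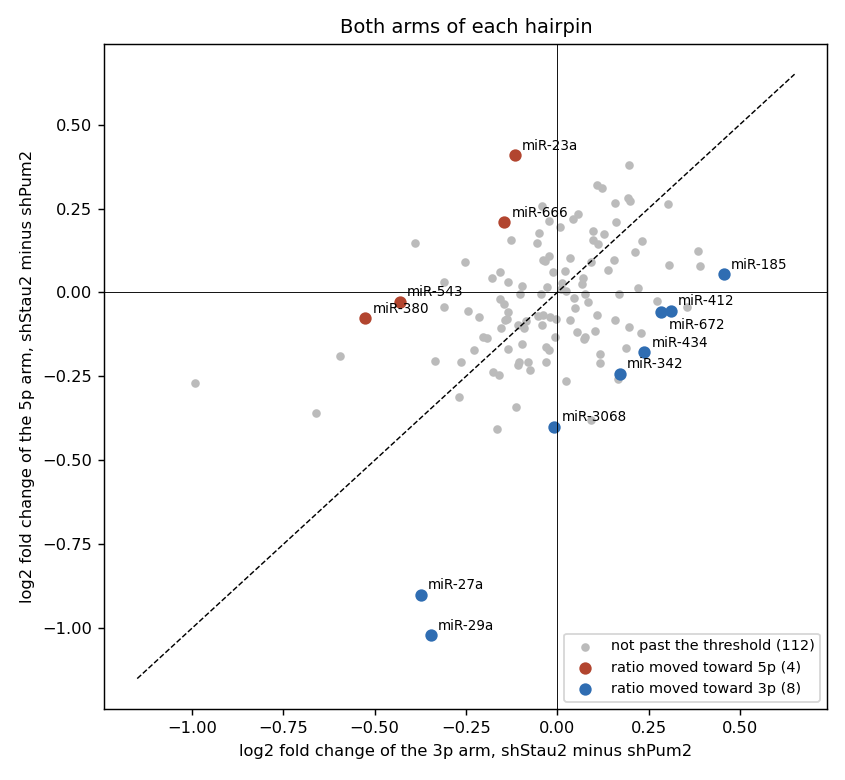
Log2 fold change of the 5p arm (vertical) against that of the 3p arm (horizontal), shStau2 minus shPum2, for 124 hairpins, with a dashed line where both arms change alike. The 12 coloured hairpins lie away from the line, 4 above it and 8 below; miR-27a and miR-29a are low in both arms.

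Some called names have an antisense partner in the tables, a name whose sequence is the reverse complement over at least 16 bases. There were 43 such pairs of tested names and 5 with a called member. For miR-29b-3p, miR-3587 matches 21 bases, in capitals here.
miR-29b-3p: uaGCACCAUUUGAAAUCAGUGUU
miR-3587: AACACUGAUUUCAAAUGGUGC
The level of miR-3587 was 96.6, 85.6, 86.7 and 67.4 CPM in shStau2 and 151, 85.5, 130 and 91.7 CPM in shPum2 (log2 fold change -0.43, SE 0.12, adjusted p = 0.0510), with shPum2 replicate 2 the lowest of its group, as for its partner. Antisense to miR-125b-5p over 22 bases, miR-3588 differed by 0.21 (adjusted p = 0.107), and miR-3543, antisense to miR-434-3p, by 0.14 (adjusted p = 0.357). Antisense to miR-409b, miR-409a-3p differed by -0.14 (adjusted p = 0.371), and miR-3556b, also antisense to miR-29b-3p, by -0.38 (adjusted p = 0.149). The match of miR-3556b to miR-29b-3p covers 17 bases, and its match to miR-29c-3p, which was not called, covers 20. In each of the 5 pairs the partner had the sign of the called miRNA, as was so in most of the 43 pairs. The pairs with miR-3587 and miR-3556b share miR-29b-3p. The sources used here do not say whether counting used strand, so reads from the partners cannot be told apart.

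Beside the non-targeting control, some of the called miRNAs sat as follows. These comparisons share the shStau2 or the shPum2 libraries with the one above and are no independent evidence. For miR-495 shStau2 minus shNTC was -0.58 (adjusted p = 0.00119) and shPum2 minus shNTC 0.27 (adjusted p = 0.417), so shNTC, at 69.3 CPM ± 10.7 (SD, n = 4), stood between the knockdowns. The same values were -1.18 (adjusted p = 0.0123) and -0.19 (adjusted p = 0.793) for miR-29b-3p, and -0.54 (adjusted p = 0.00119) and 0.07 (adjusted p = 0.843) for miR-155-5p. For miR-125a-5p they were 0.32 (adjusted p = 0.00380) and 0.05 (adjusted p = 0.814). For miR-206-3p shStau2 minus shNTC was -0.17 (adjusted p = 0.346) and shPum2 minus shNTC 0.35 (adjusted p = 0.388), and for miR-151-5p they were -0.11 (adjusted p = 0.510) and 0.23 (adjusted p = 0.472). For miR-434-3p they were 0.10 (adjusted p = 0.429) and -0.14 (adjusted p = 0.601). For these 3 neither passed, and shNTC lay between the knockdowns. The same was true of miR-7a-5p, miR-15b-5p, miR-878, miR-142-3p and miR-3542.

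Beyond the lists above, no member of the miR-30 family (11 tested), the miR-181 family (10), the miR-183 cluster (4), the Gnas locus (4), the Clcn5 intron cluster (9) or the activity-linked miRNAs (16) passed the test. With upper-quartile factors 2 at the Gnas locus, 1 in the Clcn5 cluster and 1 activity-linked miRNA were called higher, and with library totals 1 activity-linked miRNA was called lower. All 4 at the Gnas locus lay above 0 under every scaling run (median 0.24). Of the activity-linked miRNAs, miR-132-3p, induced by neuronal activity, differed by 0.22 (adjusted p = 0.0864) and miR-138-5p by -0.11. Of 19 miRNAs on a list of those destroyed on binding certain targets, miR-7a-5p was higher and miR-29b-3p lower, the first not with library totals. MiRNAs made without Drosha or Dicer (6 tested) did not pass either, among them miR-320-3p at 0.02. Oligodendrocyte markers (6 tested) and choroid or ciliated markers (18 tested) held no call, though miR-449c-5p, at 18.8 CPM, differed by -0.88 (adjusted p = 0.0676). Of the 18 choroid or ciliated markers 5 lay below 0, with a median of 0.14. Next below the threshold were miR-376c-3p at 0.33, miR-497-5p at -0.34 and miR-3587 at -0.43, each at an adjusted p of 0.0510, followed by miR-187-5p at 0.62 and miR-129-3p at 0.39. Outside the miRNAs, 4 of 90 tested piRNA names passed (4.44%): rno_piR_028761 higher, and rno_piR_012452, rno_piR_019073 and rno_piR_000219 lower. By base composition, the called miRNAs with a sequence had a median GC content of 40.5% in the lower group and 47.4% in the higher, beside 47.8% of all tested; U was the first base in 7 of 14, 6 of 9 and 36.4%.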

How the data were processed

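Small RNA was measured in 12 libraries, 4 each of shNTC, shStau2 and shPum2, and every value used is a count. The deposited counts are whole numbers per small RNA name and were not normalised. Per the labels' protocols, total RNA of integrity number 9.5 was isolated as a batch and the library kit used unique molecular identifiers. Per the submitters' processing notes, the build was Rnor 6.0. The aligner, the counter, the use of strand and whether reads or molecules were counted are not given in the sources used here, so depth and floors cover counting error only. Of the miRNA names, 7 combine several miRNAs.

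MiRNA counts of all 12 libraries were fitted together in edgeR 4.0.16 (R 4.3.3) with TMM factors, filterByExpr by group, group and replicate number as terms, and the robust quasi-likelihood test; the filter kept 628 of 685 names. P-values were two-sided and Benjamini-Hochberg adjusted over all names tested, with calls at 0.05 and no minimum fold. The block was used because the comparison pairs libraries by number. As a check, deviations from the group means correlated at r = 0.36 to 0.57 across miRNAs between libraries of the same number and at -0.41 to 0.14 between others. Every same-number pair exceeded the limit of 0.1, as did the highest of the others. Deviations from a group mean cancel out within the group, so the ranges of r are not independent of each other. No 2 libraries held identical counts.

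Seed families are names with the same bases 2 to 8 in RefSeq's mature sequences (GRCr8), with counts summed and the same test. Arm balance is log2 of the 5p count plus 0.5 over the 3p count plus 0.5, for arms averaging at least 50 counts, fitted in limma 3.58.1 with the same terms. GRCr8 served for names, neighbours and sequences only. PiRNA names were tested in a further fit with the miRNAs.

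Named miRNAs are all those called, their arm partners, seed relatives and members of their list (lists of at most 20), the 5 most abundant, the 5 uncalled with the smallest p, and each list's most abundant and called members. Neighbouring hairpins of a called miRNA, antisense partners and a few other list members were named after their values were seen. The members and the lists were chosen with earlier results of these data known. Alternatives were the fit without the block, only the 8 libraries, other scalings and filters, DESeq2 1.42.0, and leaving out numbers or libraries.

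On simulated counts of this comparison (623 names), the test called 91.8% of names changed by 1 on the log2 scale and 68.7% of those changed by 0.5, with 2 of 426 unchanged names called. On 122 simulated arm ratios 20 of 20 changed by 1 were called, with 1 of 102 unchanged. Every arm change called in the data was smaller than 1, and called miRNA changes went down to 0.22 in size, below the 0.5 simulated. The simulation does not show how these arm changes, or miRNA changes under 0.5, fare. The counts were drawn from the fitted means, replicate effects and dispersions. They therefore cannot show how the tests fare where a library departs from that model.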

Additional observations from a re-analysis of the deposited data

Results flagged for a closer look

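In 3 of the 50 groups of 4 libraries looked at for the 25 called miRNAs, a library lay far from the other 3 by Dixon's criterion; chance gives about 1 in 20. For miR-27a-5p it was shPum2 replicate 1, at 25.0 CPM beside 15.6 to 16.6 CPM. For miR-455-3p it was shStau2 replicate 3, at 11.005 CPM beside 9.51 to 9.76 CPM. For let-7i-5p it was shStau2 replicate 3, at 20182 CPM beside 17120 to 17323 CPM, which is the library that overlaps with shPum2.

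The tables also hold names of Piwi-interacting RNAs (piRNAs), which guard the germline and stand outside the miRNA comparison. Of 90 tested piRNA names 4 differed between shStau2 and shPum2 (4.44%; edgeR's quasi-likelihood test, adjusted over miRNA and piRNA names together). The level of rno_piR_028761 was 40.5, 24.7, 38.9 and 29.8 CPM in shStau2 and 18.6, 15.5, 22.6 and 14.8 CPM in shPum2, without overlap (log2 fold change 0.90, adjusted p = 0.000423). Lower in shStau2 were rno_piR_012452 (log2 fold change -0.63, adjusted p = 0.00846), rno_piR_019073 (log2 fold change -0.97, adjusted p = 0.0119) and rno_piR_000219 (log2 fold change -0.43, adjusted p = 0.0323). No sequence of these names was matched here, and whether they are piRNAs or fragments of other RNAs was not tested.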

How the results depend on the processing

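The counts of calls depended on the replicate block, the libraries fitted and the scaling, and the causes were not tested. Without the replicate block 3 miRNAs, 3 seed families, 0 piRNA names and 0 arm ratios passed (edgeR and limma; 59, 45, 6 and 16 at an unadjusted p under 0.05), beside 25, 21, 4 and 12 with it. DESeq2 with no replicate block called 7 miRNAs. With the block and only the 8 libraries, 80 miRNAs (24 of the 25 among them, all but miR-29b-3p) and 62 families passed, and with those libraries and no replicate block 0 miRNAs (edgeR; 56 at an unadjusted p under 0.05). Upper-quartile factors gave 40 miRNAs (26 higher, 14 lower) and 34 families (23 higher, 11 lower). Library totals gave 26 miRNAs (5 higher, 21 lower) and 23 families, RLE factors 27 miRNAs, and DESeq2 with the block 34 miRNAs, 20 of them among the 25. A minimum of 10 CPM gave 32 miRNAs (17 higher, 15 lower). Arm ratios gave 0 calls with at least 10 counts per arm (34 at an unadjusted p under 0.05 among 200) and 7 with at least 500. Scaling moved the median of all miRNAs by less than 0.1, between -0.05 and 0.05.

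Leaving out a replicate number gave 6 to 51 miRNAs, 5 to 43 families, 1 to 7 piRNA names and 0 to 12 arm ratios. Leaving out a library gave 6 to 68 miRNAs, 5 to 48 families, 2 to 7 piRNA names and 0 to 15 arm ratios, with the highest miRNA and family counts without shPum2 replicate 2 and the lowest miRNA count without shStau2 replicate 1, 3 or 4. No called value changed direction. Of the 27 alternatives, miR-495 and miR-29a-5p passed in 26, miR-155-5p and miR-380-3p in 25, miR-17-5p in 24, miR-206-3p and miR-27a-5p in 21, and the other 18 in 10 to 18. The floor of 3 counts reached 0.743 CPM, and the rarest called miRNA averaged 11.2 CPM.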
